A study of Mus musculus with 8 samples.

Results

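The genes described here are the nuclear genes for subunits of the mitochondrial respiratory chain and ATP synthase, followed in J774A.1 cells, a mouse macrophage line. They were chosen by symbol (Nduf, Sdh, Uqcr, Cyc1, Cox4 to Cox8 and Atp5 names), which matched 99 of the 55487 genes listed. Names ending in -ps with a number, used for pseudogenes, were dropped (10 genes), as were 9 other genes with a mean under 1 TPM, 8 of them listed at 0 in all libraries. The remaining 80 genes comprised 37 of complex I, 4 of complex II, 9 of complex III, 13 of complex IV and 17 of complex V. TPM divides the reads of a gene by its length and scales them to the library. All 80 passed the filter of a mean of at least 1 TPM that was applied to the whole table, which left 11796 genes for testing.

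Both groups were J774A.1 cultures given LPS (lipopolysaccharide), a molecule of the bacterial outer membrane that macrophages sense as a danger signal, at 1 μg/mL. The LPS group (n = 4 libraries) received nothing else, and the LPS + UDCA group (n = 4) also received the secondary bile acid UDCA (ursodeoxycholic acid) at 1 mM, both for 24 h. The question was what UDCA changes in LPS-treated macrophages, and no culture without LPS is analysed here. J774A.1 is a single tumour-derived line, and the labels do not say whether the 4 libraries of a group came from separate cultures, so the p-values measure the spread between these libraries. In RNA from a whole culture, fewer cells of a type and less RNA per cell cannot be told apart.

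Complexes I to IV pass electrons from NADH and succinate to oxygen and, except for complex II, pump protons across the inner mitochondrial membrane. Complex V, the ATP synthase, uses the returning protons to make ATP. Most subunits are encoded in the nucleus, while a small set that includes catalytic core subunits is encoded in mitochondrial DNA. In macrophages, activation by LPS is known for a shift of energy metabolism from respiration towards glycolysis.

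The libraries listed between 11412 and 11730 genes at 1 TPM or more, and no pair of the 8 libraries was identical. Read numbers cannot be recovered from TPM, so errors are SDs or standard errors over libraries and cover no counting error. Of 10 macrophage markers, 9 reached a mean of 1 TPM and Mertk was listed at 0. At an FDR of 0.05, 4 were higher and 5 lower with UDCA, 2 and 4 of them by at least 2-fold. Over all genes tested, 40.2% were higher and 32.3% lower, and 8.71% and 8.44% by at least 2-fold. The summed level of the tested markers was 4240 to 4472 TPM in the LPS libraries and 2081 to 2338 TPM with UDCA. Most of this fall in the sum was in Lyz2, a lysozyme, with means of 1988 and 436 TPM. Itgam, an integrin chain, was lower too, with means of 176 and 22.7 TPM. Its level is uncertain, since 74.1% of its short sequence words occur in other genes, 72.9% in Gm49368 (mean 9.1 TPM). The 2 markers higher by at least 2-fold were Fcgr1, with means of 37.7 and 107 TPM, and Adgre1, with 46.6 and 114 TPM. Of 11 markers of other cell types, 5 were listed at 0 throughout, and only S100a9, a neutrophil gene, reached a mean of 1 TPM, with at most 4.22 TPM in any library. The part of these marker changes in the results below was not tested.

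With UDCA, the nuclear-encoded subunit genes were on balance lower, by small amounts and in most complexes. In limma with Benjamini-Hochberg adjustment over all 11796 genes, 50 of the 80 genes were lower with UDCA, 15 were higher and 15 did not pass an FDR of 0.05. Over all genes tested, 32.3% were lower and 40.2% were higher. The median log2 fold change (LPS + UDCA against LPS, on the log2(TPM + 1) scale) was -0.21 over the 80 genes and 0.08 over all genes tested. The subunit genes are abundant, with 76 of the 80 at a mean of 50 TPM or more. Among the 2409 genes tested at such levels, the median was -0.06, with 44.0% lower and 35.3% higher. With another scaling, the median of ratios between libraries, 8 of the 80 genes were higher and 55 lower, so higher genes made up 12.7% of those called in place of 23.1%. Over all genes tested, 4741 were higher and 3807 lower as deposited (55.5% of those called were higher), against 4292 and 4288 with this scaling. Quantile normalization moved the members the other way, to 17 higher and 42 lower (28.8%), with 53.1% higher of all genes called.

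The libraries themselves separated in the same way. In 49 genes every LPS + UDCA library lay below every LPS library, in 14 genes above, and in 17 genes the groups overlapped. Over all genes tested, 29.9% lay below and 37% above without overlap. The changes were mostly small, since 63 of the 80 genes (78.8%) had an absolute log2 fold change under 0.5, against 52.4% of all genes tested. Past the study's thresholds of FDR 0.05 and a 2-fold change, 1 gene was higher (Cox6a2) and 2 were lower (Cox7a1 and Uqcr11). Over all genes tested, 8.71% were higher and 8.44% lower past both thresholds. Uqcr11 lay at the edge of the fold threshold, with a log2 fold change of -0.96 without LPS + UDCA replicate 4 and -0.94 with quantile normalization, against -1.02 with all libraries as deposited.

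**Figure D1:**
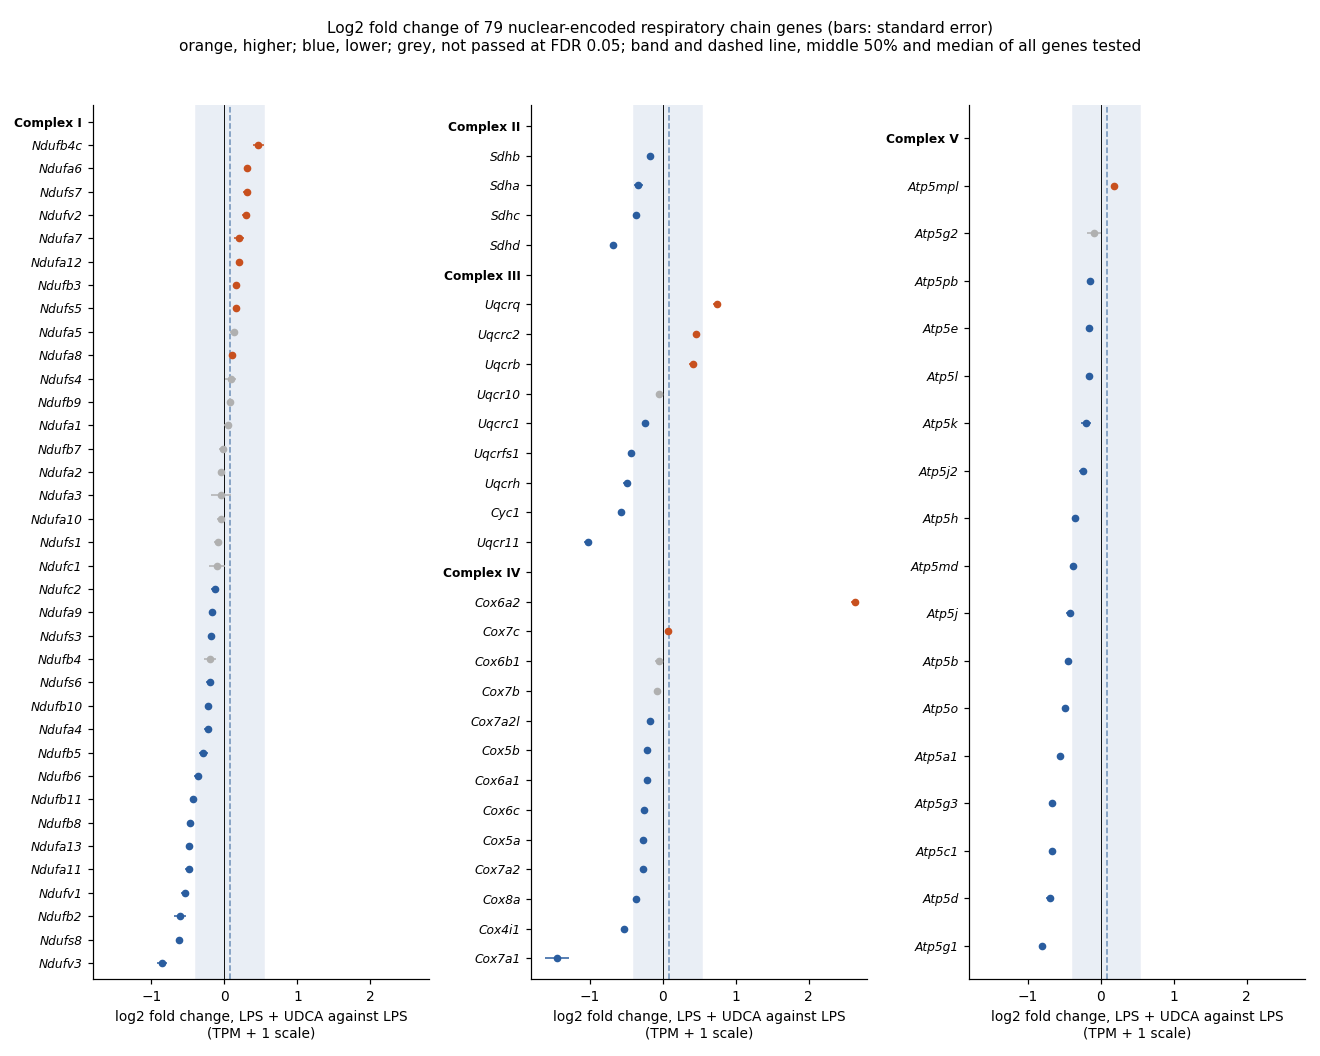
Log2 fold change (horizontal axis, LPS + UDCA against LPS, TPM + 1 scale) of 79 of the 80 genes, sorted within complexes I to V. Points are limma estimates with their standard error, orange where higher, blue where lower and grey where an FDR of 0.05 was not passed, and the band and dashed line give the middle 50% and the median of all genes tested. Most points lie left of 0, with Cox6a2 at 2.64 far to the right and Cox7a1 at -1.45 and Uqcr11 at -1.02 farthest to the left.

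The summed level of all 80 genes was 23613, 24209, 24090 and 23972 TPM in the LPS libraries and 20864, 20905, 20410 and 20090 TPM in the LPS + UDCA libraries. The groups did not overlap, and the mean sum was 14.2% lower with UDCA. Per complex, the change of the mean sum was -7.99% for complex I, -24.1% for complex II, 5.56% for complex III, -15.4% for complex IV and -23.3% for complex V. In TPM as deposited, the groups did not overlap in the sum of any of the 5 complexes. The higher sum of complex III rested on 1 gene and on the scaling. Without Uqcrq, its most abundant gene, the sum of the other 8 genes was 1962 to 2019 TPM with LPS and 1622 to 1703 TPM with UDCA, 15.9% lower, and the median log2 fold change of the 9 genes was -0.24. With the median-of-ratios scaling the sum of complex III changed by -0.11% and its groups overlapped (2633 to 2867 and 2656 to 2846), while the sums of the other 4 complexes stayed separate and lower.

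**Figure D2:**
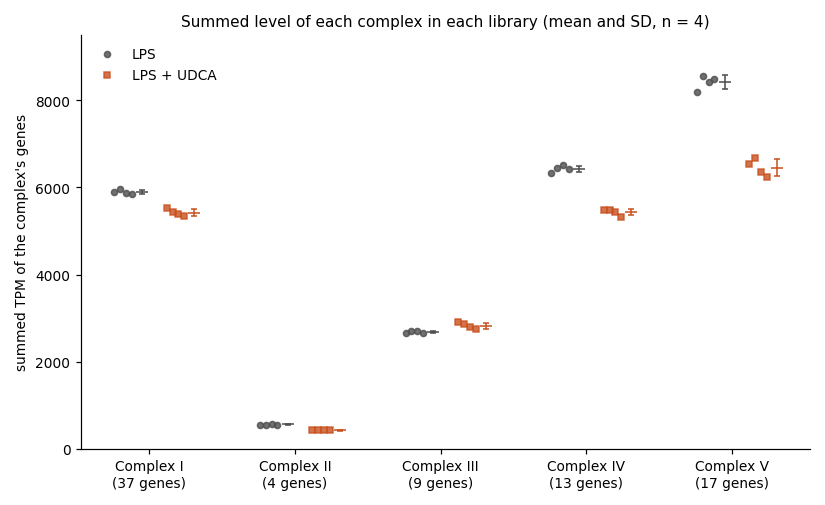
Summed TPM (vertical axis) of the genes of each complex in each of the 8 libraries, with the mean and SD of each group (n = 4). The LPS + UDCA libraries lie below the LPS libraries for complexes I, II, IV and V, most widely for complex V (6252 to 6683 against 8196 to 8556 TPM), and above them for complex III (2748 to 2902 against 2653 to 2709 TPM), whose groups overlapped with the median-of-ratios scaling.

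Complex I oxidises NADH. Of its 37 genes, 17 were lower (45.9%), 9 higher (24.3%) and 11 did not pass. Among all genes tested at a mean of 50 TPM or more, 44.0% were lower and 35.3% higher. The median log2 fold change of complex I was -0.10. The median was -0.18 with the median-of-ratios scaling, where 21 genes were lower and 4 higher, and -0.05 over its genes with under 5% of 31-base words shared with other genes. Its core subunits, along which electrons travel from NADH to ubiquinone, differed in direction. Ndufv1, the flavin-bearing subunit that takes electrons from NADH, read 115, 118, 108 and 106 TPM with LPS and 79.4, 80.1, 72.8 and 72.8 TPM with UDCA. It fell by 0.55 on the log2 scale (SE 0.05, adjusted p = 1.01e-05), and each LPS library lay above each UDCA library. Ndufs8, an iron-sulfur subunit, was lower as well (-0.62), and Ndufs3, with 55.0% of its 31-base words found in other genes, was lower by less (-0.18), a call lost with quantile normalization (-0.11). The iron-sulfur subunits Ndufs7 (0.31) and Ndufv2 (0.30) were higher. Ndufs1, the largest iron-sulfur subunit, had overlapping groups of 39.5 to 43.1 TPM and 37.7 to 42.4 TPM (-0.09, adjusted p = 0.152), and it passed as lower without LPS + UDCA replicate 4 (-0.12), with the median-of-ratios scaling (-0.16) and after subtracting each library's median over all genes (-0.16).

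Among the accessory genes of complex I, the extremes were Ndufv3 and Ndufb4c. Ndufv3, an accessory subunit of the part that oxidises NADH, read 192, 203, 202 and 180 TPM with LPS and 109, 121, 104 and 96.5 TPM with UDCA. Its log2 fold change of -0.85 (SE 0.07, adjusted p = 4.57e-06) was the lowest of complex I. Ndufa12, the most abundant gene of the complex, read 377, 372, 384 and 365 TPM with LPS and 446, 405, 438 and 426 TPM with UDCA, and it was higher by 0.19 (adjusted p = 0.000909). This call was lost with the median-of-ratios scaling, where the value was 0.11. Ndufa6, an accessory subunit, rose from 160 to 175 TPM in the LPS libraries to 201 to 219 TPM with UDCA (0.31), without overlap. Among genes tested at a mean of 50 TPM or more, 35.3% were higher and 44.0% lower. The 13 genes with Ndufa symbols were divided into 4 higher (30.8%), 4 lower (30.8%) and 5 not passed. The means of their summed level, 2386 and 2396 TPM, differed by 0.38%. Of the 4 higher, only Ndufa6 also passed with the median-of-ratios scaling. The 13 with Ndufb and Ndufc symbols had 7 lower (53.8%), among them Ndufb2 (-0.61) and Ndufb8 (-0.48), 2 higher (15.4%) and 4 not passed. Of the 4 remaining genes, Ndufs6 was lower (-0.20), Ndufs5 higher (0.16) and Ndufs4 did not pass (0.08). The call of Ndufs6 was lost with quantile normalization (-0.11) and that of Ndufs5 with the median-of-ratios scaling (0.08). Ndufa4 (-0.23) is counted here by its symbol, although its protein is now placed in complex IV.

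Ndufb4c had the highest fold change of complex I (0.47, adjusted p = 0.000261), with 134, 115, 137 and 122 TPM with LPS and 196, 164, 171 and 172 TPM with UDCA. GENCODE annotates it as a processed pseudogene, the only one among the 80 genes, and all of its 31-base words also occur in other transcripts, in Ndufb4 among them. Ndufb4 itself had 28.2 to 36.1 TPM with LPS and 26.3 to 31.6 TPM with UDCA and did not pass (-0.20, adjusted p = 0.0593), although it passed as lower in 6 of the 17 refits, the median-of-ratios scaling among them (-0.27). The division of reads between this pair is uncertain.

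Complex II, succinate dehydrogenase, links the citric acid cycle to the chain and is the only one with no subunit encoded in mitochondrial DNA. All 4 of its genes were lower with UDCA, with no overlap between groups in any of them. Among genes tested at a mean of 50 TPM or more, 44.0% were lower and 42.1% lay below without overlap. Sdhd, a membrane anchor that helps to bind ubiquinone, read 192, 205, 208 and 200 TPM with LPS and 123, 126, 124 and 128 TPM with UDCA. It fell by 0.68 (SE 0.03, adjusted p = 2.5e-07), a larger fall than those of the other anchor and of the catalytic pair. Sdhc, the other anchor, read 82.2, 88.1, 89.0 and 86.8 TPM and 69.2, 68.3, 66.1 and 64.0 TPM (-0.37, adjusted p = 3.88e-05). Sdha, the flavoprotein that oxidises succinate, read 84.3, 80.2, 97.4 and 84.5 TPM and 66.0, 69.5, 70.1 and 68.3 TPM (-0.33, adjusted p = 0.000764). Sdhb, the iron-sulfur subunit, read 179, 181, 183 and 180 TPM and 159, 162, 157 and 164 TPM (-0.17, adjusted p = 0.00053). The log2 fold changes of these 4 genes, whose proteins join in 1 complex, ranged from -0.68 to -0.17.

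Complex III, which passes electrons from ubiquinol to cytochrome c, had the widest interquartile range of log2 fold changes among the 5 complexes (0.90). That range was near the 0.92 of all genes tested. Of the 9 genes of complex III, 5 were lower (55.6%), 3 higher (33.3%) and 1 did not pass. Among genes tested at a mean of 50 TPM or more, 44.0% were lower and 35.3% higher. Both nuclear-encoded catalytic subunits were lower. Cyc1, cytochrome c1, read 162, 153, 151 and 144 TPM with LPS and 103, 108, 101 and 97.4 TPM with UDCA (-0.57, adjusted p = 5e-06). Uqcrfs1, the Rieske iron-sulfur protein, read 113, 120, 122 and 113 TPM and 87.5, 91.2, 87.6 and 80.9 TPM (-0.43, adjusted p = 3.1e-05). The groups of both genes were well apart.

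The 2 core proteins of complex III, which form a structural pair, moved in opposite directions. Uqcrc1 read 280, 262, 269 and 267 TPM with LPS and 232, 245, 220 and 218 TPM with UDCA (-0.24, adjusted p = 0.000741). Uqcrc2 read 95.2, 99.3, 101 and 99.8 TPM and 130, 134, 140 and 139 TPM (0.45, adjusted p = 5.1e-06). Neither gene had overlapping groups. The mean level of Uqcrc1 was above that of Uqcrc2 in both groups (269 and 98.8 TPM with LPS, 229 and 136 TPM with UDCA).

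The small subunits of complex III spread furthest. Uqcr11 read 359, 345, 345 and 345 TPM with LPS and 182, 178, 177 and 150.4 TPM with UDCA. It fell by 1.02 on the log2 scale (SE 0.06, adjusted p = 4.65e-07), the lowest value of the complex. Uqcrq, the most abundant gene of the complex, read 699.9, 732, 689.5 and 644 TPM and 1222, 1183, 1096 and 1126 TPM. It rose by 0.74 (SE 0.05, adjusted p = 9.28e-07), and none of its 31-base words was shared with another gene. Uqcrh was lower (-0.49) and Uqcrb higher (0.41), while Uqcr10 had overlapping groups of 426 to 455 TPM and 400 to 451 TPM (-0.04, adjusted p = 0.362).

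Complex IV, cytochrome c oxidase, passes the electrons to oxygen. Its catalytic core is encoded in mitochondrial DNA, and its nuclear-encoded subunits include some that exist in a ubiquitous form and in a form typical of heart and muscle. Of the 10 genes for constant or ubiquitous forms, 7 were lower, Cox7c was higher and 2 did not pass. Among genes tested at a mean of 50 TPM or more, 44.0% were lower and 35.3% higher. Cox4i1, a regulatory subunit and the most abundant gene of the complex, read 1454, 1464, 1489 and 1457 TPM with LPS and 1028, 1044, 1002 and 984 TPM with UDCA. It fell by 0.53 (SE 0.03, adjusted p = 2.11e-07), the largest fall among the ubiquitous forms. Falls of 0.21 to 0.37 on the log2 scale were seen for Cox8a (-0.37), Cox7a2 (-0.27), Cox5a (-0.27), Cox6c (-0.26), Cox6a1 (-0.21) and Cox5b (-0.21). Cox7c was higher by 0.08 (464 to 486 against 494 to 508 TPM, adjusted p = 0.0287), and the call was lost with the median-of-ratios scaling. It was also lost without LPS replicate 1, LPS replicate 3, LPS + UDCA replicate 1 or LPS + UDCA replicate 4, at 0.07 in each case. Cox6b1 (-0.05) and Cox7b (-0.07) had overlapping groups. The sign of Cox6b1 changed without LPS replicate 4 and with quantile normalization (0.11), and Cox7b passed as lower with the median-of-ratios scaling (-0.15) but had no fall with quantile normalization (0.0026). Cox7a2l, whose product joins complexes III and IV into supercomplexes, was lower (-0.17). With quantile normalization the calls of Cox7a2l (-0.10) and Cox6a1 (-0.09) were lost.

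Cox6a2, the heart and muscle form of subunit VIa, had the largest change of the 80 genes. It read 16.6, 15.3, 15.6 and 16.2 TPM with LPS and 109, 110, 100.4 and 98.2 TPM with UDCA. Its mean with UDCA was 6.55 times that with LPS, and its log2 fold change was 2.64 (SE 0.05, adjusted p = 9.98e-10). The gene lies at chr7:128205435-128206387 on the minus strand of GRCm38, and its exons overlap those of Itgad, an integrin gene on the opposite strand with a mean of 0.0025 TPM. The ubiquitous form Cox6a1 read 1060, 1037, 1044 and 936 TPM with LPS and 883, 889, 901 and 838 TPM with UDCA. Cox6a2 therefore made up 1.54% ± 0.11 (SD, n = 4) of the pair's summed TPM with LPS and 10.6% ± 0.47 with UDCA (exact 2-sided permutation test, p = 0.029, adjusted p = 0.029 over 5 such shares), with no overlap between groups. The smallest p that the 70 arrangements of 8 libraries allow is 0.029. The sum of the pair was 952 to 1076 TPM with LPS and 936 to 1002 TPM with UDCA.

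Cox7a1, the heart and muscle form of subunit VIIa, went the other way. It read 17.1, 11.6, 13.7 and 13.8 TPM with LPS and 5.0, 2.95, 5.27 and 4.97 TPM with UDCA (log2 fold change -1.45, SE 0.16, adjusted p = 3.77e-05). Its share of the summed TPM of Cox7a1 and Cox7a2 was 4.73% ± 0.80 (SD, n = 4) with LPS and 1.90% ± 0.44 with UDCA, again without overlap (exact permutation test, p = 0.029, adjusted p = 0.029). Among the heart and muscle forms, the pair of tested genes thus moved in opposite directions, while the ubiquitous partner of each was lower by 0.21 and 0.27. The promoters of Cox7a1 at chr7:30183921-30184143 (plus strand) and of Cox7a2 at chr9:79759879-79760103 (minus strand) are shown because this pair differs both in level and in response. They are given 5′ to 3′ from RefSeq on GRCm38, ending before the first annotated exon base, and neither holds any of the 5 motifs described further on.
Cox7a1: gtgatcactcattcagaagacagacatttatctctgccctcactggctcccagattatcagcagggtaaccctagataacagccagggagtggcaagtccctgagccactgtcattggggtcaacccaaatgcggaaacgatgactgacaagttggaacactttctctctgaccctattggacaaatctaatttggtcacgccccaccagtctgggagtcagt
Cox7a2: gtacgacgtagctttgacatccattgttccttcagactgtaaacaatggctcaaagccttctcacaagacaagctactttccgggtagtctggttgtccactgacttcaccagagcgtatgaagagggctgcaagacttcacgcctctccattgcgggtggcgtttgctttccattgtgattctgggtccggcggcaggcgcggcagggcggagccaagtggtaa

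**Figure D3:**
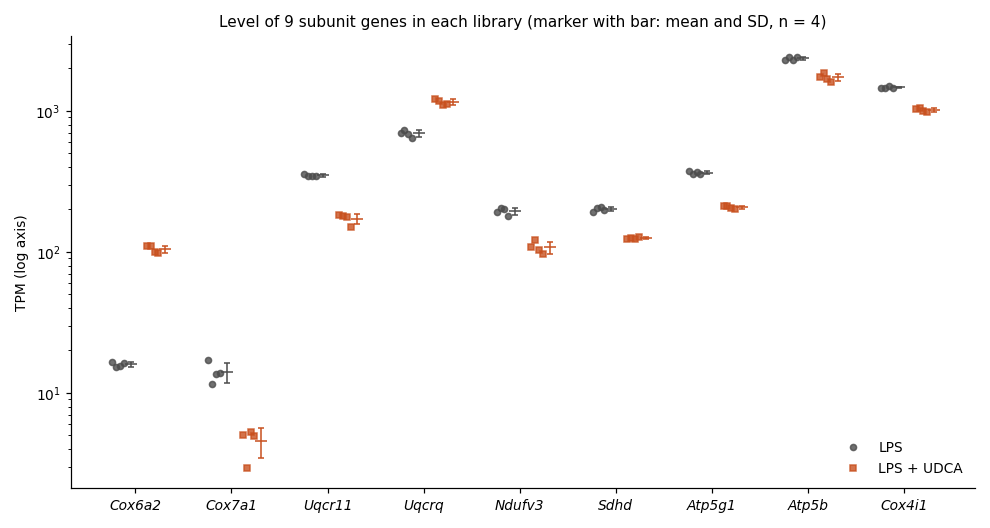
TPM on a log axis (vertical) of 9 subunit genes in each of the 4 LPS and 4 LPS + UDCA libraries, with the mean and SD of each group (n = 4). The groups of all 9 genes are separate, with the LPS + UDCA libraries higher for Cox6a2 and Uqcrq and lower for Cox7a1, Uqcr11, Ndufv3, Sdhd, Atp5g1, Atp5b and Cox4i1.

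Complex V, the ATP synthase, had a median log2 fold change of -0.39, beside -0.35 for complex II, an order that turned with quantile normalization (-0.25 and -0.29). Of its 17 genes, 15 were lower (88.2%), only Atp5mpl was higher and Atp5g2 did not pass. Among genes tested at a mean of 50 TPM or more, 44.0% were lower and 42.1% lay below without overlap. All 5 complex V genes of the catalytic F1 head and central stalk were lower. Atp5b, which codes for the catalytic beta subunit and is the most abundant of the 80 genes, read 2283, 2414, 2308 and 2412 TPM with LPS and 1734, 1860, 1696 and 1607 TPM with UDCA. It fell by 0.45 (SE 0.04, adjusted p = 1.49e-05), with means of 2354 and 1724 TPM. Atp5a1, the alpha subunit, read 482, 495, 488 and 491 TPM and 330, 343, 328 and 329 TPM (-0.55, adjusted p = 1.75e-07). Atp5d, the delta subunit, read 411, 393, 402 and 384 TPM and 254, 258, 238 and 227 TPM (-0.70, adjusted p = 1.07e-06). Atp5c1, the gamma subunit of the rotating stalk, fell by 0.67 and Atp5e, the epsilon subunit, by 0.16. No library of one group reached the range of the other in these 5 genes, but the call of Atp5e was lost with quantile normalization (-0.06).

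The peripheral stalk, which holds the head still against the rotor, was lower in all 4 genes. These were Atp5o (-0.50), Atp5j (-0.43), Atp5h (-0.35) and Atp5pb (-0.14, from 241 to 269 TPM with LPS to 231 to 236 TPM with UDCA). With quantile normalization Atp5pb did not pass (-0.04), which left 3 of the 4. Of the 5 small membrane subunits, 4 were lower, led by Atp5md (-0.39), with Atp5j2 (-0.25), Atp5k (-0.20, with overlapping groups) and Atp5l (-0.17). With quantile normalization neither Atp5k (-0.12) nor Atp5l (0.02) passed, and Atp5k also did not pass without LPS replicate 2, LPS replicate 4 or LPS + UDCA replicate 3, at -0.20 to -0.17, or with no filter (-0.20). Atp5mpl read 338, 345, 354 and 349 TPM with LPS and 384, 422, 389 and 374 TPM with UDCA, higher by 0.18 (adjusted p = 0.00312). It did not pass with the median-of-ratios scaling (0.10).

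The c-ring, the rotor that protons drive, is built from 1 protein encoded by 3 genes whose mature products are identical. Atp5g1 read 374, 359, 368 and 355 TPM with LPS and 211, 210.1, 204 and 202 TPM with UDCA, and it fell by 0.81 (SE 0.03, adjusted p = 4e-08), the lowest value of complex V. Atp5g3, the most abundant of the 3, read 454, 472, 485 and 453 TPM and 299.8, 293, 289 and 293 TPM (-0.66, adjusted p = 1.6e-07). Atp5g2 read 24.7, 20.8, 21.4 and 18.9 TPM and 21.5, 22.1, 18.7 and 17.5 TPM, with overlapping groups (-0.10, adjusted p = 0.383). The sum of the 3 genes was 852 TPM (SD 19.1, n = 4) in the LPS group and 521 TPM (SD 10.3) in the LPS + UDCA group. Within that sum, the share of Atp5g1 was 42.8% ± 0.86 with LPS and 39.7% ± 0.23 with UDCA, and that of Atp5g2 was 2.52% ± 0.26 and 3.83% ± 0.36 (exact permutation tests, each p = 0.029, adjusted p = 0.029). A part of the words of Atp5g1 (14.8%) and Atp5g2 (19.6%) occurs in other genes. The gene that shares most with Atp5g2 is Gm10175, with 13.4% of its words and a mean of 524 TPM against 20.7 TPM for Atp5g2. For Atp5g1 it is Gm10039, with 7.56% of its words and a mean of 78.6 TPM. How reads were divided among these genes is not given in the sources used here, so the level of Atp5g2 and its share of the sum are uncertain.

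The stretches before the start of the 3 c-ring genes are shown because the genes code for the same mature protein but differ in level and response. They lie at chr11:96075671-96075881 (minus strand), chr15:102671128-102671297 (minus strand) and chr2:73911327-73911576 (minus strand) of GRCm38, are credited to RefSeq, run 5′ to 3′ and end before the first annotated exon base. Capitals mark the letters TGACCTTGA, the reverse complement of the ESRRA letters searched, which begin 52 bases before the start of Atp5g3. Atp5g2 holds the letters CGCATGCG 41 bases before its RefSeq start, in a part that GENCODE places in an exon and that is not shown.
Atp5g1: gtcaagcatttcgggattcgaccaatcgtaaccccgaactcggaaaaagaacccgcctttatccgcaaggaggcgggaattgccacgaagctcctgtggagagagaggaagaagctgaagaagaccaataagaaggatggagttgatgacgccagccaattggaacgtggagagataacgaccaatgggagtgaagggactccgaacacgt
Atp5g2: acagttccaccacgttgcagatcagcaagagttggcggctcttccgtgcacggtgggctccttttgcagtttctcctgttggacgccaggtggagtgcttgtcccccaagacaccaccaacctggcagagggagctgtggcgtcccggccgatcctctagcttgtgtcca
Atp5g3: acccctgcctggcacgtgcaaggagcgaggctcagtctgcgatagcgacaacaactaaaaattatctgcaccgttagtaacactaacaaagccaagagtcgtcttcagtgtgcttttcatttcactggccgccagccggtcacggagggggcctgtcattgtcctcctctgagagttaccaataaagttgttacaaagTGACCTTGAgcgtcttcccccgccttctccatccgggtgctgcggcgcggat

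**Figure D4:**
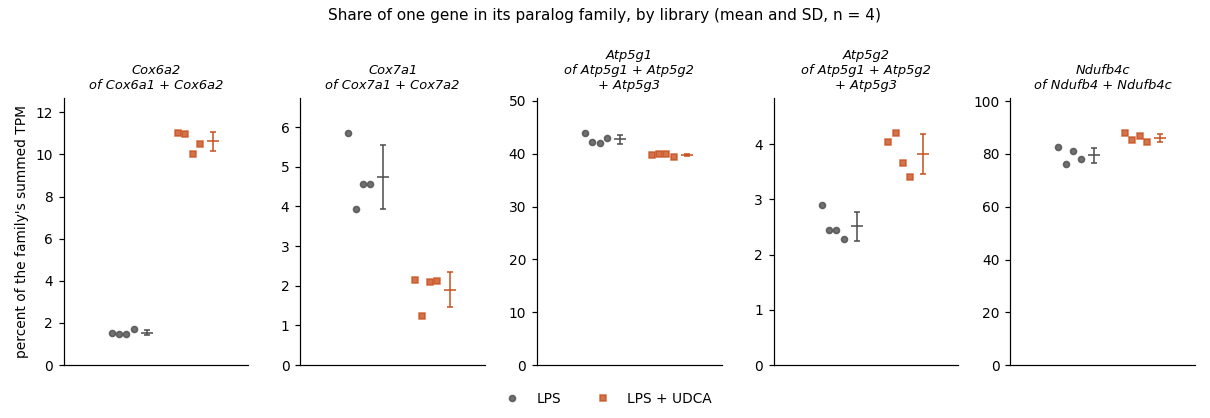
Share of 1 gene in the summed TPM of its paralog family (vertical axes, percent, starting at 0) in each library, with the mean and SD of each group (n = 4). Cox6a2 rises from 1.54% to 10.6% and Cox7a1 falls from 4.73% to 1.90%, while Atp5g1, Atp5g2 and Ndufb4c move by smaller steps without overlap between the groups. The shares of Atp5g2 and Ndufb4c rest on an uncertain division of reads.

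For Ndufb4c, the share of the summed TPM of Ndufb4 and Ndufb4c was 79.5% ± 2.86 (SD, n = 4) with LPS and 86.1% ± 1.504 with UDCA (exact permutation test, p = 0.029, adjusted p = 0.029). The sum of this pair was 159 TPM (SD 7.52) and 204 TPM (SD 13.9).

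Many respiratory chain genes share binding sites for the transcription factors NRF1, GABPA (an ETS factor), YY1 and SP1 and for the nuclear receptor ESRRA near their start. In the RefSeq table of GRCm38, 65 of the 80 genes had a promoter window of 250 bases before and 50 after the start. Each motif was searched on both strands as fixed letters, none of which lies within another. The NRF1 letters CGCATGCG were in 9 of the 65 (13.8%), against 4.75% of the genes tested that had a window and 1.87% of all windows. For the YY1 letters AANATGGCG the shares were 10 of 65 (15.4%), 6.63% and 2.38%. The ETS letters CCGGAAGT were in 5 (7.69%), against 10.2% and 3.89%, and the SP1 letters GGGGCGGGG in 10 (15.4%), against 24.9% and 11.4%. The ESRRA letters TCAAGGTCA were in 2 (3.08%), Sdhd and Atp5g3, against 0.317% and 0.423%. No motif was found in 34 of the 65. The median log2 fold change was -0.21 for the 9 genes with the NRF1 letters and -0.22 for those without, -0.37 and -0.21 for ETS, and -0.18 and -0.22 for YY1. For SP1 it was -0.12 and -0.24, and Sdhd (-0.68) and Atp5g3 (-0.66) stood among the lower members. These counts describe letters in a window and were not tested.

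Uqcr11, the lowest gene of complex III, was the only one of the 65 with both the NRF1 and the ETS letters. The part of its promoter before the first annotated exon base, at chr10:80406831-80407071 (minus strand) of GRCm38, is shown for this reason, with the ETS letters in capitals 66 bases before the start. The NRF1 letters of its window fall outside the stretch shown.
Uqcr11: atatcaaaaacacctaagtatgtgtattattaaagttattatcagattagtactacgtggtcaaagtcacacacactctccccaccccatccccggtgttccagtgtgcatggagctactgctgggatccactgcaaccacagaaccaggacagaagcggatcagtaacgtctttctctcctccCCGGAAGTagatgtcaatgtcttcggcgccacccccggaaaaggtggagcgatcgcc

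Of factors known to act on genes of the chain, the coactivator Ppargc1b was at a low level in both groups. It read 4.00, 3.39, 2.82 and 2.66 TPM with LPS and 0.47, 0.42, 0.41 and 0.35 TPM with UDCA (-1.57, adjusted p = 5.12e-06). Esrra had means of 44.4 TPM (SD 4.22, n = 4) and 23.1 TPM (SD 2.71) in the same order (-0.91, adjusted p = 1.97e-05). Both genes had separate groups, and Ppargc1a, the related coactivator, was listed at 0. Yy1 was lower (-0.30, adjusted p = 0.0432) and Gabpa higher (0.38, adjusted p = 0.00691), both with overlapping groups. Nrf1 (0.05) and Tfam (0.21), which serves the transcription of mitochondrial DNA, did not pass. Over the 19 tested regulators of mitochondrial biogenesis, 7 were higher (36.8%) and 8 lower (42.1%), beside 40.2% and 32.3% of all genes tested. The median of the 19 was 0.05, with Mterf1a at the upper end (0.97). The part of these factors in the changes of the subunit genes was not tested.

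The subunits encoded in mitochondrial DNA gave mixed values. Of 13 genes, 4 were lower (30.8%), 2 higher (15.4%) and 7 did not pass, with a median of -0.19. The shares over all genes tested were 32.3% lower and 40.2% higher. mt-Nd6 read 386, 303, 303 and 348 TPM with LPS and 66.3, 72.7, 61.4 and 85.1 TPM with UDCA (-2.22, adjusted p = 2e-07). Its exon overlaps mt-Nd5, which lies on the opposite strand and was lower as well (-1.06), and where the counting used no strand, which the sources used here do not state, their reads cannot be told apart. mt-Co1, the catalytic subunit of complex IV, read 4369 to 5113 TPM and 3034 to 3863 TPM (-0.49). mt-Nd2 was highest (0.40). Several of these genes share nearly all words with nuclear copies that also took reads, as for mt-Co3, with 99.9% of its words shared and values from 0.24 to 253 TPM within the LPS group alone. The values of this list are therefore uncertain.

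Assembly factors build the complexes and are not part of them. Of all genes tested, 40.2% were higher and 32.3% lower. For complex I, 6 of 18 were higher (33.3%) and 6 lower (33.3%), shares near those. Their median was -0.13, from Tmem126a (-1.20, means 89.2 and 38.4 TPM) to Ndufaf1 (0.79). For complexes II, III and V, 9 of 14 were higher (64.3%) and 4 lower (28.6%). Their median was 0.30, from Sdhaf2 (-0.46) to Uqcc3, a factor for complex III. Uqcc3 read 10.6, 10.8, 10.96 and 12.6 TPM with LPS and 31.1, 38.1, 32.0 and 35.9 TPM with UDCA (1.52, adjusted p = 3.04e-07), with no overlap. For complex IV, 6 of 24 were higher and 9 lower (median -0.19), from Cmc2 (-1.26) to Cox20 (0.80), which shares 90.8% of its words with other genes.

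Of 21 tested genes for cytochrome c, coenzyme Q and enzymes that feed it, 5 were higher (23.8%) and 8 lower (38.1%), with a median of -0.12. The shares over all genes tested were 40.2% and 32.3%. Cycs, cytochrome c, was lower by a small amount (-0.15, adjusted p = 0.0414, overlapping groups). Gpd2, which passes electrons from glycerol 3-phosphate to coenzyme Q, was lowest (-1.31, means 8.93 and 2.99 TPM). Sqor, which passes them from sulfide, was highest (0.98, means 16.8 and 34.2 TPM).

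A further list of mitochondrial genes outside the chain was mostly lower too, unlike the assembly factors of complexes II, III and V. Of 17 genes for the outer membrane, carriers, prohibitins and citrate synthase, 12 were lower and 2 higher, with a median of -0.31. Over all genes tested, 32.3% were lower and 40.2% higher. Slc25a5, the adenine nucleotide carrier that exchanges ADP for ATP, read 763, 798, 798 and 806 TPM with LPS and 454, 461, 465 and 449 TPM with UDCA (-0.79, adjusted p = 2.72e-08). Cs, citrate synthase, had means of 184 and 119 TPM (-0.62), and Vdac3, an outer membrane channel, was highest (0.45). The part of this list's change in that of the subunit genes was not tested.

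Of subunits and regulators of the chain that the symbols did not capture, Atpif1, the inhibitor of ATP synthase, was lower (-0.47, means 469 and 340 TPM). Ndufab1, an acyl carrier protein within complex I, was higher (0.30, means 148 and 182 TPM). Dmac2l, linked to ATP synthase, was higher as well (0.89, adjusted p = 0.0409), with overlapping groups.

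**Figure D5:**
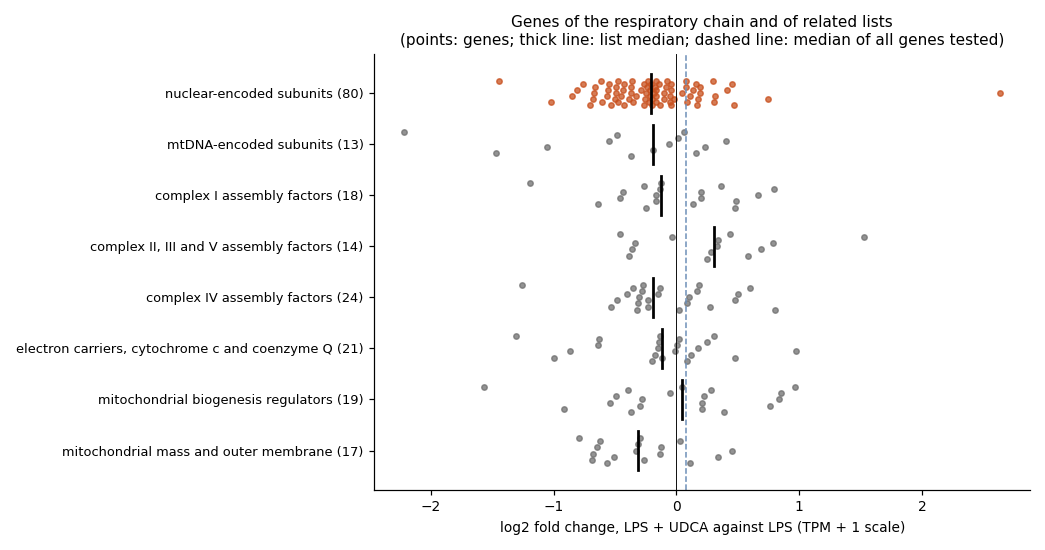
Log2 fold change (horizontal axis, LPS + UDCA against LPS, TPM + 1 scale) of each tested gene of the nuclear-encoded subunits and of 7 related lists, with the number of genes in brackets. Points are genes, thick lines list medians and the dashed line the median of all genes tested (0.08). Medians lie left of 0 for the subunits (-0.21) and for mitochondrial mass and outer membrane (-0.31). The same holds for mtDNA-encoded subunits (-0.19), assembly factors of complexes IV (-0.19) and I (-0.13) and electron carriers (-0.12). Right of 0 lie the medians for assembly factors of complexes II, III and V (0.30) and biogenesis regulators (0.05).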

How the data were processed

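RNA from J774A.1 cells (4 LPS and 4 LPS + UDCA libraries, TruSeq kit, Illumina HiSeq) was analysed from the table deposited by the authors, which holds TPM per gene with 2 decimals. No source names the unit, which was read from column sums of 958918 to 977485. The submitters' processing notes name Bowtie 0.12.2 and mm10 (GRCm38), and the counting program is not given in the sources used here. Groups were taken from the sample labels, and no library was left out.

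The filter on low values (mean TPM of 1 or more) kept 11796 genes. Their log2(TPM + 1) values were fitted in limma 3.58.1 under R 4.3.3 by lmFit and eBayes with trend, and p-values were adjusted by Benjamini-Hochberg over the whole table. The fit was tested on simulated data. Log2 fold changes understate the change of low genes. Shares within paralog families were compared by exact 2-sided permutation tests. The text names, per complex, the 2 highest and 2 lowest passing genes, the most abundant gene, genes past 2-fold, paralogs and landmark subunits, of which 1 is not reported here. Other members were named after their values were seen, so that each complex is accounted for. Roles within complexes were also written after the values were seen. Members and lists were chosen with earlier results of these data known.

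Positions, gene types, exon overlaps and 31-base words shared between transcripts are from GENCODE M21, which held 55227 of 55487 identifiers. Of the 80 genes, 38 had under 5% shared words and 29 had exons overlapping another gene. Motifs were searched in RefSeq promoters. Alternatives covered scaling, filters, the pseudocount, the trend, the replicate block, leaving out each library and the choice of members. Tables and figures were made with Python 3.11.15, pandas 2.3.3 and matplotlib 3.10.9.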

Additional observations from a re-analysis of the deposited data

Results flagged for a closer look

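Each group of 4 libraries was searched for a library apart from the other 3, by the gap to its nearest neighbour as a share of the group's range, in 84 groups of values. The share passed Dixon's critical value in 6 groups, and chance gives about 1 in 20, or 4.2 groups. Uqcr11 was marked in both groups, with LPS replicate 1 highest at 358.95 TPM (share 0.96) and LPS + UDCA replicate 4 lowest at 150.37 TPM (share 0.844). In Cox6b1, LPS replicate 4 was highest at 627.17 TPM (share 0.952). In Cox7a1, LPS + UDCA replicate 2 was lowest at 2.95 TPM (share 0.871). In Atp5a1, LPS + UDCA replicate 2 was highest at 343.1 TPM (share 0.839). In Cox8a, LPS replicate 1 was lowest at 701.45 TPM (share 0.832). Of these 5 genes, only Cox6b1 had overlapping groups.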

How the results depend on the processing

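Each comparison was recomputed under alternatives. With the median-of-ratios scaling, 8 members were higher, and the median log2 fold changes were -0.286 (all 80), -0.183 (complex I), -0.427 (II), -0.316 (III), -0.293 (IV) and -0.466 (V). With the median of all genes subtracted, 9 were higher, with medians of -0.285, -0.182, -0.426, -0.315, -0.292 and -0.464 in the same order. With quantile normalization the medians were -0.125 (all 80), -0.083 (I), -0.288 (II), -0.140 (III), -0.118 (IV) and -0.249 (V). Rescaling each library to the same sum, chosen after seeing the data, gave -0.186 for all 80. The sign of these medians was kept under each of these scalings. Leaving out each library in turn gave medians of -0.226 to -0.186 (all 80), -0.147 to -0.079 (I), -0.366 to -0.313 (II), -0.270 to -0.215 (III), -0.253 to -0.202 (IV) and -0.408 to -0.360 (V). It gave 13 to 15 members higher, 48 to 51 lower, 2 to 3 past 2-fold and 63 to 66 without overlap. Over only the 38 members with under 5% shared words, 6 were higher, 24 lower and 1 past 2-fold (fewer members by construction), with medians of -0.228, -0.0464 (I), -0.333 (III), -0.319 (IV) and -0.451 (V). Over the 79 members annotated as protein-coding, a choice made after seeing the data, 14 were higher and 50 lower. Counting the single -ps gene at 1 TPM, also added later, left every count within 1.5 times. The summed TPM, recomputed after seeing the data, changed with the median of ratios by -18.8% (all 80), -12.9% (I), -28.2% (II), -0.11% (III, where the sign turned), -20.0% (IV) and -27.4% (V). Rescaled to the same sum, complexes I, III and IV changed by -6.61%, 7.13% and -14.1%, with the sign of complex III kept. In TPM as deposited but without Uqcrq, complex III changed by -15.9%, with the sign turned.

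The sign changed for Cox6b1 with quantile normalization (0.112) and without LPS replicate 4 (0.000779, the highest of a range from -0.0741 over libraries left out), for Cox7b with quantile normalization (0.00259) and for Cox7c with the median of ratios (-0.00114), and the cause was not tested. Quantile normalization also ended the calls of Cox6a1 (-0.0878), Cox7a2l (-0.0970) and Atp5pb (-0.0405). Of the 37 members named by rule, 28 kept direction and call under all 17 refits.

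With the replicate number as a block, 14 members were higher and 51 lower. The numbers were not taken to pair the libraries, since deviations of same-numbered libraries correlated at -0.0354 to 0.146 and of differently numbered ones at -0.145 to 0.162. TPM keeps no depth, so what depth limits cannot be stated.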

Other observations

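Across the 80 genes, which are not independent replicates, the log2 fold change showed little relation to the mean level (Pearson's r = -0.03, Spearman's rho = -0.09) and a weak negative one to the length of the longest transcript (r = -0.20, rho = -0.27). TPM divides by length, so the mean level and the transcript length are not independent measures. The 80 genes lie on 19 chromosomes, 3 of them on X.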
